A study of Mus musculus with 6 samples.

Results

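The genes described here are 10 cytotoxic effector genes of the mouse, measured by RNA sequencing in early T cell progenitors sorted from fetal thymus. They were chosen by symbol from the authors' deposited table, whose gene column held all 10 of them among 22609 genes, and all 10 were among the 16241 genes with a p-value. By role they are 5 granule proteins (Gzma, Gzmb, Gzmc, Prf1 and Nkg7), 2 death ligands (Fasl and Tnfsf10) and 3 secreted effectors of type 1 responses (Ifng, Xcl1 and Ccl3). The first group, called dKO, was E2Afl/flHEBfl/flIL7RCre, mice with floxed alleles of both E proteins, E2A (gene Tcf3) and HEB (gene Tcf12), and a Cre recombinase under Il7r. The second group, called control, was wild type. Both were C57BL/6, and both were sorted as Lin- CD4- CD8- CD25- cells with CD44 and c-Kit, the dKO cells also for YFP, so the gate and the genotype cannot be told apart. Each group had 3 libraries, and the labels do not say whether they came from separate animals. The p-values therefore reflect how far these libraries spread, and that spread may be technical. The age of the fetuses is not given in the sources used here.

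Cytotoxic lymphocytes kill in 2 ways. In one, perforin opens the membrane of a target cell and granzymes, serine proteases stored with it in secretory granules, enter and cleave proteins that keep the cell alive. In the other, ligands of the TNF family on the killer bind death receptors on the target. The same cells secrete interferon gamma and chemokines that activate and attract macrophages and dendritic cells. Granzymes, perforin and interferon gamma are known from natural killer (NK) cells, type 1 innate lymphoid cells (ILC1) and activated CD8 T cells, and E proteins, transcription factors that bind the E-box in DNA, are known to hold T cell progenitors on the adaptive path.

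In the dKO group 7 of the 10 genes were higher, 2 were lower and 1 did not pass, at an authors' adjusted p under 0.05. Over all tested genes 29.0% passed that threshold, 15.1% higher and 13.8% lower in dKO. The share that passed grew with abundance, from 19.5% of genes with a mean normalised count of 10 to 100 to 36.7% of those from 100 to 1000 and 43.9% of those of at least 1000. The median log2 change of the 10 genes was 1.36, against -0.01 over all tested genes. The genes that rose were Ifng, Gzmc, Ccl3, Gzmb, Prf1, Tnfsf10 and Nkg7, those that fell were Fasl and Gzma, and Xcl1 did not pass. Each of the 3 roles held at least 1 gene that rose, while the granule proteins and the death ligands held 1 fall each. In these bulk samples fewer cells of a type and less RNA per cell cannot be told apart.

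**Figure D1:**
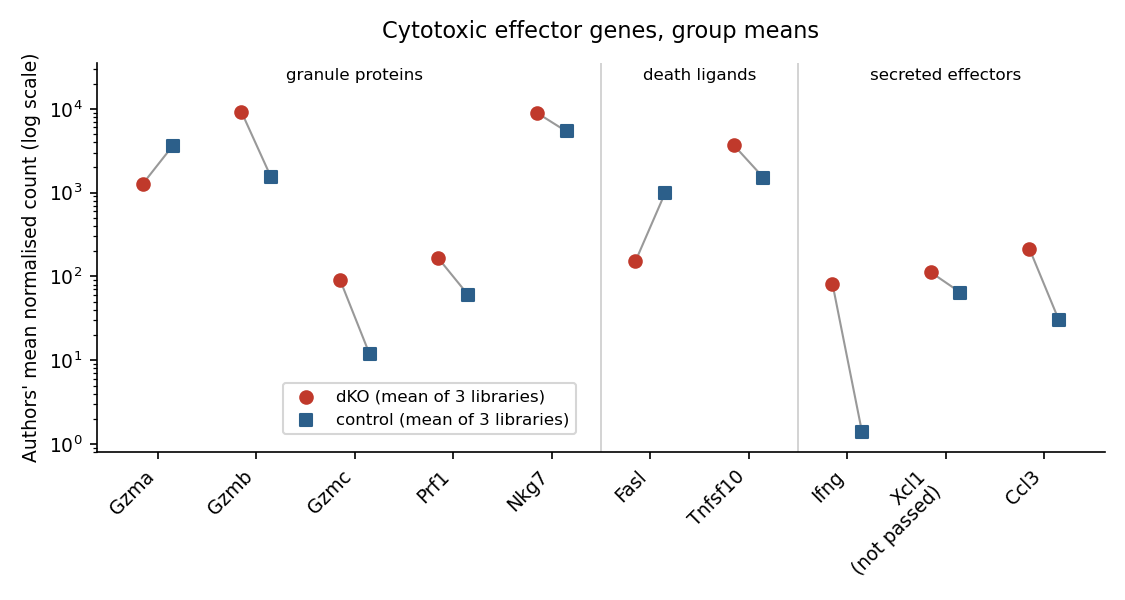
Authors' mean normalised count (log scale) of the 10 genes in dKO (circles) and control (squares), each the mean of 3 libraries with no spread in the deposited table, joined by a line per gene and ordered by role. Gzma and Fasl are the genes whose dKO mean lies below the control mean.

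The authors' deposited table gives 1 mean per gene and group. The low means are sums of whole reads, each weighted by the size factor of its library, and the reads of each library could be recovered for 5 of the 10 genes in both groups and for Fasl in the dKO group. Libraries are called by these size factors, 1.04, 1.08 and 1.16 in dKO and 0.823, 0.952 and 1.02 in control, since the table does not tie them to a replicate number. Depth was about 24.3 to 27.0 M reads per dKO library and 18.2 to 22.6 M per control library. The targeted genes were lower in dKO in the authors' deposited table, Tcf3 with a mean of 364 in dKO and 8931 in control, and Tcf12 with 562 in dKO and 3845 in control.

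Among the granule proteins, Gzmb, which encodes granzyme B, a protease that cleaves after aspartate and activates caspases, had the highest dKO mean of the 10 genes. Its mean in the authors' deposited table was 9173 in dKO and 1531 in control, 5.99-fold higher (authors' adjusted p = 1.72e-08). Gzmc, which encodes granzyme C, rose 7.69-fold in the authors' deposited table, to a mean of 91.6 in dKO against 11.9 in control (authors' adjusted p = 0.00972). Its recovered normalised counts were 95.4, 142 and 37.2 in the dKO libraries of size factor 1.04, 1.08 and 1.16, and 21.9, 3.15 and 10.7 in the control libraries of size factor 0.823, 0.952 and 1.02. The groups did not overlap, but the lowest dKO library stood near the highest control library, and the SD was 52.6 in dKO and 9.41 in control (n = 3 each). The fold rests on 295 dKO reads and 32 control reads, and without the control library of size factor 0.823 it was 13.2. Gzma, which encodes granzyme A, a protease that cleaves after basic residues, went the other way. Its mean in the authors' deposited table was 1283 in dKO and 3601 in control, 2.81-fold lower (authors' adjusted p = 7.91e-23).

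The other 7 granzyme genes were low or listed at 0. Gzmd, Gzme, Gzmg and Gzmn were listed with means of 0 in dKO and in control in the authors' deposited table. A listed 0 need not mean that a gene has no RNA, since Vamp7, a widely expressed gene of vesicle fusion, is also listed at 0 in both. Gzmm, which encodes granzyme M, had a mean in the authors' deposited table of 27.6 in dKO and 49.5 in control, and missed the threshold (authors' adjusted p = 0.443). Gzmf had 5 reads, all in the dKO library of size factor 1.16, and Gzmk had 4 reads, all in control libraries. Taking 3 reads in the shallowest library of a group, the floor of a mean is 0.963 in dKO and 1.21 in control, and this covers counting error only. Gzmb and Gzmc are adjacent genes at one end of a granzyme cluster on chromosome 14, in the RefSeq order of GRCm38.p6, and Gzmf, Gzmn, Gzmg, Gzmd and Gzme follow in that order. Beyond Gzme lie the protease genes Ctsg, Mcpt8, Mcpt4, Mcpt2, Mcpt1 and Cma1. Mcpt8, a basophil protease, rose to 342 in dKO against 110 in control in the authors' deposited table. The mast cell proteases Cma1 (565 in dKO, 784 in control), Mcpt1 (60.0 in dKO, 220 in control) and Mcpt2 (25.6 in dKO, 149 in control) fell in the same deposited table. Gzma and Gzmk are neighbours on chromosome 13. The reads of near-identical genes can be split by counting, and here 4.14% of the 845 windows of 50 bases in the Gzmc transcript occur in another granzyme transcript, and none of the 1387 windows of Gzmb do (GENCODE M21 transcripts). The other granzyme transcripts were not compared in this way.

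**Figure D2:**
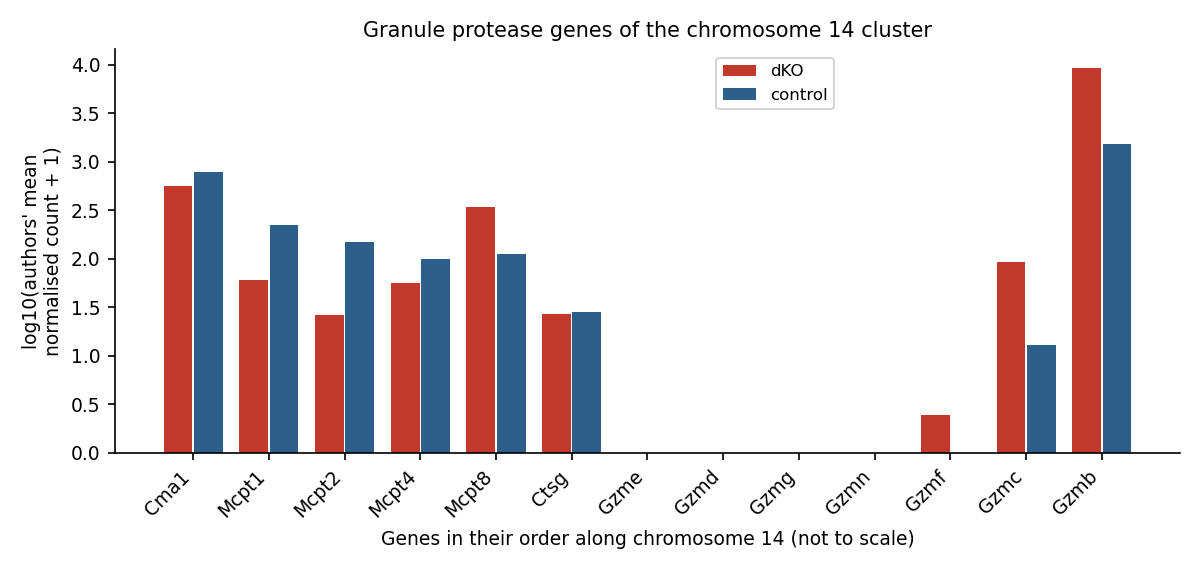
Authors' mean normalised count, as log10(mean + 1), of granule protease genes in their order along chromosome 14 (not to scale), dKO (left bar) and control (right bar). Gzmc and Gzmb at the right end are higher in dKO, and Gzme, Gzmd, Gzmg and Gzmn are listed at 0 in both groups.

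Promoters of the granzyme genes are shown because Gzmb and Gzmc rose, Gzma fell and Gzmd was listed at 0 with a promoter close to that of Gzmc. Each is the RefSeq window of 300 bases on GRCm38.p6, from 250 bases before to 50 after the start, while the submitters' processing notes name mm9 for the reads, so the windows were matched by symbol only. Capitals mark every E-box, CANNTG. The windows are chr14:56262285-56262584 (minus strand) for Gzmb, chr14:56234608-56234907 (minus strand) for Gzmc, chr14:56132544-56132843 (minus strand) for Gzmd and chr13:113100932-113101231 (minus strand) for Gzma.
Gzmb: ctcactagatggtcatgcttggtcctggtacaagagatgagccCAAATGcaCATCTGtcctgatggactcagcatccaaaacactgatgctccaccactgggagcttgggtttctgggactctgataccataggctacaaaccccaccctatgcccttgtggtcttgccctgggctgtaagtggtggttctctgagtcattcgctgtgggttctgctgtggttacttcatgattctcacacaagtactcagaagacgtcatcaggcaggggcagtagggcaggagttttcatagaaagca
Gzmc: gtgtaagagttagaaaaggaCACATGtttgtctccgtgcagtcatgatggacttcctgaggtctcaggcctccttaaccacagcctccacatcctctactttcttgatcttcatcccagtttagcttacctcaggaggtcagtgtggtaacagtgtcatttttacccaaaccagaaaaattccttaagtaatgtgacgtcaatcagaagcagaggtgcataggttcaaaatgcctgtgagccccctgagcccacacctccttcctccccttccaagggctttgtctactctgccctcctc
Gzmd: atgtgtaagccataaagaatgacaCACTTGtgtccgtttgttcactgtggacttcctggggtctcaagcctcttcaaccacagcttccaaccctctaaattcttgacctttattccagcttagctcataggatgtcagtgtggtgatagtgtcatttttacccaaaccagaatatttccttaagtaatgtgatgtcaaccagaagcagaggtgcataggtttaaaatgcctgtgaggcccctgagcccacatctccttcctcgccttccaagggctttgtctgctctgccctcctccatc
Gzma: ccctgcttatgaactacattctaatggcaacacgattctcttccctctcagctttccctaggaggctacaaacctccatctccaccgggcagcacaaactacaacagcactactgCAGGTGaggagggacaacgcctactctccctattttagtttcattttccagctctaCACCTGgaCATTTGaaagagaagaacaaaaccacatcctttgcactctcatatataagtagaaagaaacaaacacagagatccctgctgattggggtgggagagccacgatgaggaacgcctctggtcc
The Gzmc window was 82.7% identical to that of Gzmd and 46.3% identical to that of Gzmb in a global alignment. Gzmb had 2 E-boxes, Gzmc 1, Gzmd 1 and Gzma 3. Of the 3 in Gzma, 2 had the form CACCTG or its reverse complement CAGGTG, a form that E2A is known to bind, and none of those in Gzmb, Gzmc and Gzmd had it. That form was also in the windows of Prf1, Tnfsf10 and Ifng, which rose. It was absent from those of Nkg7 and Ccl3, which rose, and of Fasl, which fell. A link between the form and the changes was not tested.

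Prf1, which encodes perforin, rose 2.71-fold in the authors' deposited table, with a mean of 164 in dKO and 60.5 in control (authors' adjusted p = 0.00133). Its recovered normalised counts were 190, 155 and 146 in the dKO libraries of size factor 1.04, 1.08 and 1.16, against 69.2, 68.3 and 43.9 in the control libraries of size factor 0.823, 0.952 and 1.02. The groups did not overlap, and the SD was 23.0 in dKO and 14.3 in control (n = 3 each). Nkg7, which encodes a membrane protein of cytotoxic granules, was already abundant in control and rose 1.67-fold in the authors' deposited table, with a mean of 8960 in dKO and 5375 in control (authors' adjusted p = 2.22e-11). Nkg7 had a smaller fold than Gzmb and a smaller adjusted p in the authors' deposited table, and the spread between libraries behind either is not known, since their reads could not be recovered.

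The death ligands moved in opposite directions. Fasl, the ligand of the death receptor Fas, had a mean in the authors' deposited table of 152 in dKO and 986 in control, 6.49-fold lower (authors' adjusted p = 8.03e-39). That was the smallest p of the 10 genes. Its dKO normalised counts were 118, 137 and 201 in the libraries of size factor 1.04, 1.08 and 1.16 (SD 43.2, n = 3), all below the control mean. Tnfsf10, which encodes TRAIL, another apoptosis-inducing ligand, rose 2.43-fold in the authors' deposited table, to 3669 in dKO against 1509 in control (authors' adjusted p = 1.69e-07). Fas itself rose 11.0-fold in the authors' deposited table, to 157 in dKO against 14.2 in control (authors' adjusted p = 2.47e-05). Its normalised counts were 119, 233 and 118 in the dKO libraries of size factor 1.04, 1.08 and 1.16 and 14.6, 11.6 and 16.6 in the control libraries of size factor 0.823, 0.952 and 1.02, with no overlap. Tnfrsf10b, the TRAIL receptor of the mouse, had means in the authors' deposited table of 161 in dKO and 89.7 in control and missed the threshold (authors' adjusted p = 0.0630), although its 3 dKO libraries, from 154 to 172, lay above its 3 control libraries, from 80.0 to 102. The promoter of Fasl is shown because it had the deepest fall, chr1:161788446-161788745 (minus strand) on GRCm38.p6, with E-boxes in capitals.
Fasl: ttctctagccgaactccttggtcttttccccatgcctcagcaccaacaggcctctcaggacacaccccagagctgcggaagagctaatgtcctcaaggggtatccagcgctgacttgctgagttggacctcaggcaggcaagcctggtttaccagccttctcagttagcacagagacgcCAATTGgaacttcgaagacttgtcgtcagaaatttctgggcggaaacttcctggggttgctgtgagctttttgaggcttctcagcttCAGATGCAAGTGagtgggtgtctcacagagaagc
It had 3 E-boxes, none of the form CACCTG or CAGCTG.

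Ifng, which encodes interferon gamma, the cytokine that activates macrophages, had the largest fold of the 10 genes. Its mean in the authors' deposited table was 82.3 in dKO and 1.40 in control, 58.8-fold higher (authors' adjusted p = 3.51e-10), which was rank 14 of log2 changes, counted from the highest, among the 12896 tested genes whose mean over both groups was 10 or more. The recovered normalised counts were 94.4, 53.9 and 98.6 in the dKO libraries of size factor 1.04, 1.08 and 1.16 (SD 24.7, n = 3), and 0, 4.20 and 0 in the control libraries of size factor 0.823, 0.952 and 1.02. All 3 dKO libraries were far above all 3 control libraries. The control mean stood on 4 reads of 1 library, close to the floor of 1.21, while the dKO mean stood on 270 reads. The control group had no read without its library of size factor 0.952, and dKO was at least 45.2-fold higher (3 reads in the shallowest of the 2 libraries left, a mean of 1.82), and without either of the other control libraries the fold was 39.2. The promoter of Ifng, chr10:118440796-118441095 (plus strand) on GRCm38.p6, is shown for this reason, with E-boxes in capitals.
Ifng: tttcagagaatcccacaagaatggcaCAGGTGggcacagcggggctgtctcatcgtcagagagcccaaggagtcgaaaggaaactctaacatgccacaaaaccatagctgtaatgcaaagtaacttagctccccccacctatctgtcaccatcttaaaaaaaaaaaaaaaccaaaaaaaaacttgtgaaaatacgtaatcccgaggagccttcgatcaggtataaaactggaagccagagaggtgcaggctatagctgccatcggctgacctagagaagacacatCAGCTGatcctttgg
Its 2 E-boxes were 1 CAGGTG and 1 CAGCTG.

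Ccl3, a chemokine for macrophages and NK cells, rose 7.15-fold in the authors' deposited table, with a mean of 214 in dKO and 30.0 in control (authors' adjusted p = 5.62e-11). Its normalised counts were 193, 195 and 255 in the dKO libraries of size factor 1.04, 1.08 and 1.16, against 17.0, 37.8 and 35.1 in the control libraries of size factor 0.823, 0.952 and 1.02. The groups were far apart, with an SD of 35.4 in dKO and 11.3 in control (n = 3 each). Xcl1, the chemokine that attracts Xcr1-bearing dendritic cells, had a mean in the authors' deposited table of 112 in dKO and 64.3 in control, 1.75-fold higher, and missed the threshold (authors' adjusted p = 0.161). Its normalised counts were 113, 140 and 84.8 in the dKO libraries of size factor 1.04, 1.08 and 1.16, against 72.9, 69.3 and 50.8 in the control libraries of size factor 0.823, 0.952 and 1.02. The 2 groups of Xcl1 did not overlap, though the gap between them was smaller than the SD of the dKO libraries, 27.4. With 3 libraries against 3 an exact permutation test cannot go below p = 0.1 (2-sided), so none was made per gene.

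**Figure D3:**
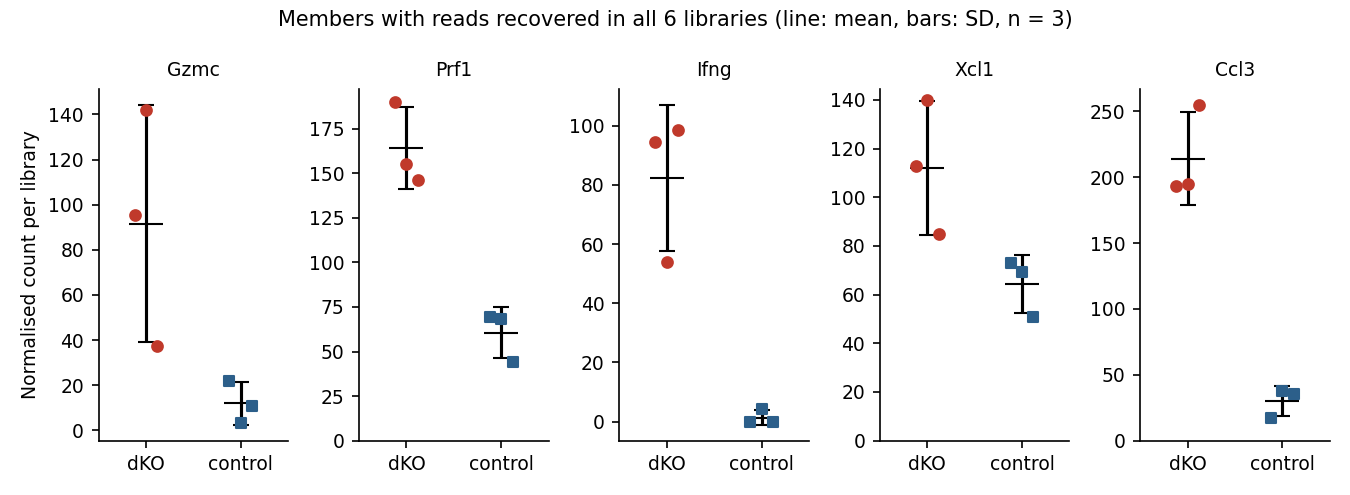
Normalised count per library recovered from the group means, for the 5 genes with reads recovered in all 6 libraries, dKO (circles) and control (squares), with the mean (line) and SD (bars), n = 3 each. In each panel the 3 dKO libraries lie above the 3 control libraries, by the narrowest margin for Xcl1 and Gzmc.

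All 5 genes with reads recovered in every library had the 3 dKO libraries above the 3 control libraries. Over the 2591 tested genes with a mean of 10 or more over both groups, a control mean of up to 100 and a dKO mean of up to 250, 21.3% did so and 17.4% had the 3 dKO libraries below. Only genes of low abundance could be recovered, which leaves out Gzma, Gzmb, Nkg7 and Tnfsf10, and Fasl in control. The genes that fell, Fasl and Gzma, are therefore not among the 5, so their shared direction is partly set by the selection. The limit on the mean was also lower in control than in dKO, which can admit more genes that rose. The dKO libraries did not share 1 order over these genes. That of size factor 1.08 was the highest for Gzmc and Xcl1 and the lowest for Ifng, and that of size factor 1.16 was the highest for Ifng, Ccl3 and Fasl and the lowest for Gzmc, Prf1 and Xcl1. The coefficient of variation of the dKO libraries ran from 14.0% for Prf1 to 57.5% for Gzmc.

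The E-box CANNTG was found in 9 of the 10 promoter windows, all but that of Xcl1, and in 72.3% of the 32851 RefSeq windows of the same length. The form CACCTG, read on both strands, was in 4 windows (Gzma, Prf1, Tnfsf10 and Ifng) and in 20.2% of all windows, and CAGCTG was in 2 (Prf1 and Ifng) and in 16.3% of all windows. Both forms are also counted as CANNTG. The motif TGTGGT of Runx factors, read on both strands, was in 7 windows (Gzma, Gzmb, Gzmc, Prf1, Nkg7, Xcl1 and Ccl3) and in 16.8% of all windows. The motif AGGTGTGA of T-box factors, read on both strands, was in that of Nkg7 and in 1.28% of all windows, and the AP-1 motif TGANTCA was in that of Gzmb and in 7.81% of all windows. A match describes the letters of a window and is not a binding site. Genes that rose and genes that fell both carried E-boxes.

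Other genes of the cytotoxic pathway were described with 10 lists of 86 genes, of which 79 were tested. The lists covered granule content and release, other granzymes, granzyme inhibitors, death receptors and TNF family ligands. They also covered interferon gamma signalling, type 1 receptors and factors, chemokines and chemokine receptors. In these lists 37 genes were higher, 6 were lower and 36 did not pass, beside the 15.1% higher and 13.8% lower of all tested genes, and their median log2 change was 0.63. The lists were chosen with earlier results of these data known, so a difference from those shares may be partly built in. Those shares are also not matched for abundance, and the share that passed grew with abundance. Of 10 genes of granule content and granzyme processing, 5 rose and none fell. Ctsw, a cathepsin of NK and cytotoxic T cells, rose 4.84-fold in the authors' deposited table to 6085 in dKO against 1257 in control, and Ctsc, the protease that activates granzyme precursors, rose 1.90-fold to 2532 in dKO against 1329 in control. M6pr, a receptor that sorts granzymes to granules, rose 1.73-fold and Igf2r 1.54-fold in the authors' deposited table. Srgn, the proteoglycan that holds granzymes in the granule, had means in the authors' deposited table of 6563 in dKO and 5578 in control and missed the threshold, as did Calr and Lamp1. Of 10 tested genes of granule exocytosis, 3 rose, 1 fell and 6 did not pass. All 10 had a mean of at least 100 in both groups. Of all tested genes, 36.7% of those with a mean of 100 to 1000 passed, and 43.9% of those of at least 1000. The share of this list that passed lay between these values, so the list did not stand out by that share. The authors' deposited table had Sytl2, a Rab27 effector, 5.10-fold higher, with 1939 in dKO against 380 in control. Stx11 rose 3.29-fold in the authors' deposited table and Unc13d, the priming factor Munc13-4, rose 1.27-fold, while Vamp8 fell 1.60-fold. The most abundant genes of that list that did not pass were Stxbp2, Ap3b1 and Rab27a.

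Inhibitors of granzymes and death receptor genes were split. Of 6 intracellular serpins and related inhibitors, Serpinb6a (3.42-fold) and the granzyme B inhibitor Serpinb9 (2.17-fold) rose in the authors' deposited table. Serpinb1a, best known as an inhibitor of neutrophil proteases, fell 2.94-fold to 2062 in dKO against 6054 in control, and Serpinb6b fell 1.45-fold, in the authors' deposited table. Among the death receptor and signalling genes, Fas and Tradd (1.33-fold) rose and Bid (1.31-fold) fell in the authors' deposited table, and Casp8, Tnfrsf1b and Cflar missed the threshold. Of 9 other ligands of the TNF family, 5 rose and none fell. The authors' deposited table had Tnf 4.34-fold higher, with 614 in dKO against 141 in control, and Lta 19.2-fold, Ltb 4.07-fold and Tnfsf14 3.93-fold higher. Tnfsf9, Tnfsf8 and Tnfsf4 did not pass.

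Of 8 genes of interferon gamma reception, 7 rose and 1, Irf1, did not pass. Both receptor chains rose in the authors' deposited table, Ifngr2 3.10-fold to 1593 in dKO against 514 in control and Ifngr1 2.31-fold to 7578 in dKO against 3275 in control. The receptor kinase genes Jak2 and Jak1 were 2.15-fold and 1.54-fold higher in the authors' deposited table. Of 10 tested receptors and factors known to induce type 1 effectors, 6 rose, 1 fell and 3 did not pass. Of the interleukin 18 receptor genes, Il18r1 rose 7.80-fold and Il18rap to 1281 in dKO against 427 in control in the authors' deposited table, and Il12rb1 rose 3.42-fold. Tbx21, which encodes T-bet, rose 11.0-fold in the authors' deposited table, to 501 in dKO against 45.6 in control (authors' adjusted p = 0.00221). Il12rb2, the second chain of the interleukin 12 receptor, fell 2.62-fold to 745 in dKO against 1948 in control in the authors' deposited table. Runx3, Stat4 and Prdm1 were the most abundant of that list that did not pass.

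Of 8 tested chemokine genes related to Ccl3 and Xcl1, 4 rose and none fell. The authors' deposited table had Ccl6 14.0-fold higher, with 159 in dKO against 11.4 in control, and Ccl5 7.25-fold higher, with 653 in dKO against 90.0 in control. Ccl9 rose 4.51-fold and Cxcl10 4.12-fold in the authors' deposited table. Ccl4, which lies beside Ccl3 and has a similar protein, had means in the authors' deposited table of 35.6 in dKO and 16.6 in control and missed the threshold (authors' adjusted p = 0.378). Among the chemokine receptors, Xcr1, the receptor of Xcl1, rose 8.83-fold and Ccr1, a receptor of Ccl3, rose 5.40-fold in the authors' deposited table, and Ccr3 missed the threshold. The normalised counts of Xcr1 were 374, 338 and 394 in the dKO libraries of size factor 1.04, 1.08 and 1.16 and 43.7, 48.3 and 33.2 in the control libraries of size factor 0.823, 0.952 and 1.02, with no overlap.

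**Figure D4:**
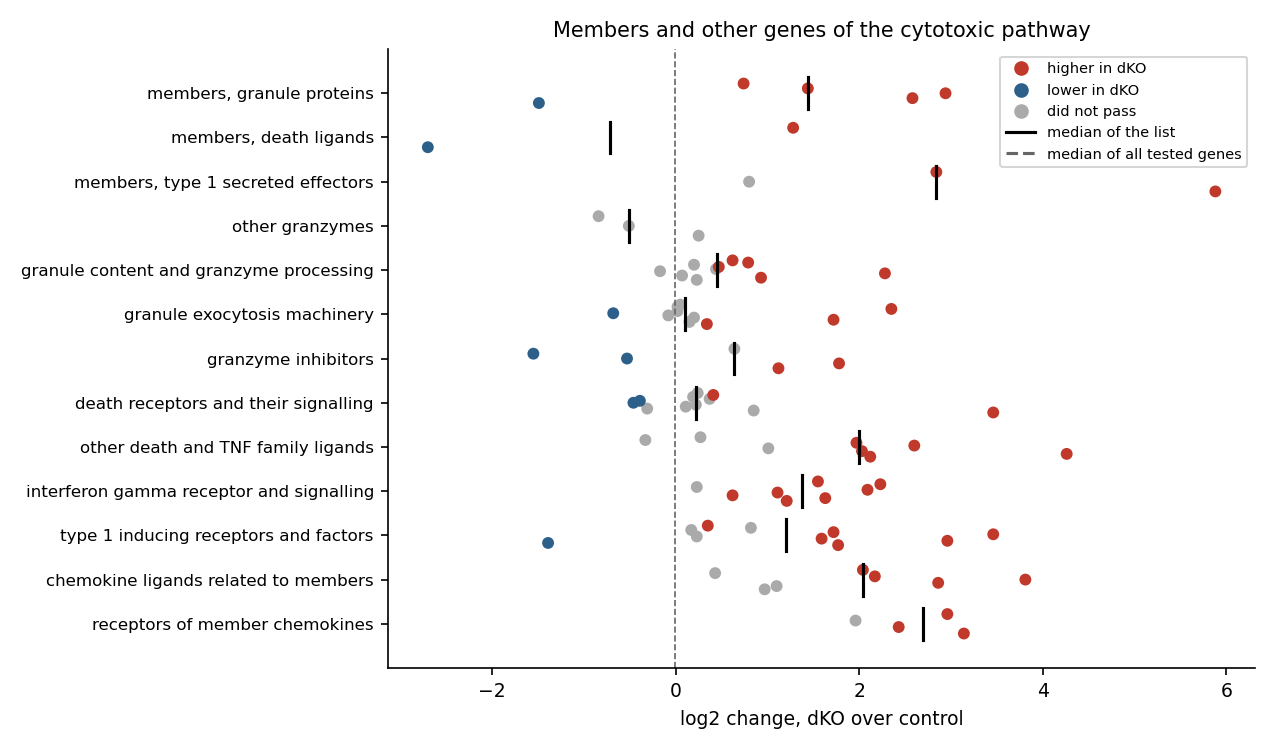
Log2 change, dKO over control, of the 10 genes by role (top 3 rows) and of the other cytotoxic pathway lists, 1 point per gene, with the median of each list (black line) and of all tested genes (dashed line, -0.01). Points are coloured by whether the authors' adjusted p was under 0.05 and in which direction, and Ifng is the point farthest to the right.

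Markers of other cell types also differed between the groups, and their part in the results above was not tested. Among 11 NK cell and ILC1 markers 8 rose and 1 fell, with a summed mean of 12570 in dKO and 4348 in control and none at 0. Il2rb was the largest part of the dKO sum and rose 12.3-fold, to 6291 in dKO against 511 in control in the authors' deposited table. Ncr1 rose 42.3-fold to 231 in dKO against 5.47 in control, and Itga2 4.67-fold in the authors' deposited table, while Tyrobp and Klre1 missed the threshold. Among 10 markers of T cells 1 rose and 6 fell, with a summed mean of 6172 in dKO and 12814 in control. In the authors' deposited table Cd5 fell 7.96-fold and Cd3e 3.31-fold, Cd28 rose 9.80-fold, and Cd8a, at 27.2 in dKO and 9.51 in control, did not pass. Of 10 markers of mast cells and basophils, which also store granule proteases, 3 rose, 4 fell and the others missed the threshold, with a summed mean of 3564 in dKO and 7247 in control. In the authors' deposited table Cpa3 fell 2.71-fold, while Tpsb2 rose 11.4-fold.

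The early T cell progenitor markers summed to 65257 in dKO and 65293 in control. The sums were near equal although 4 of these 10 markers rose and 5 fell, so rises and falls cancelled in them. Notch1 was 5.56-fold and Myb 4.93-fold lower and Gata3 3.26-fold higher in the authors' deposited table. Of the gate's own genes, Kit, which encodes c-Kit, rose 1.35-fold to 19067 in dKO against 14094 in control (authors' adjusted p = 0.00227), and Cd44, at 2765 in dKO and 3220 in control, missed the threshold in the authors' deposited table. Myeloid markers summed to 2564 in dKO and 8880 in control, with 1 of 8 tested higher and 4 lower, and Cd14, S100a8 and S100a9 were listed at 0 in both groups. Mpo alone made up most of both sums, with 1457 in dKO against 7310 in control in the authors' deposited table. B cell markers summed to 1077 in dKO and 1251 in control, with 1 of 4 tested lower and Ms4a1 and Pax5 listed at 0 in both groups. Erythroid markers summed to 122 in dKO and 1189 in control, with 1 of 4 tested lower, Beta-s, and the globin symbols Hbb-b1, Hbb-b2, Hba-a1 and Hba-a2 listed at 0 in both groups. Dendritic and stromal markers summed to 2111 in dKO and 951 in control, with 1 of 7 tested higher, 1 lower and 5 not passing. The gene that rose, the cytokine gene Flt3l, made up most of the dKO sum, with 1585 in dKO against 376 in control in the authors' deposited table. Itgax fell, to 85.0 in dKO against 285 in control in the authors' deposited table. Siglech and Pdgfra were listed at 0 in both groups.

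**Figure D5:**
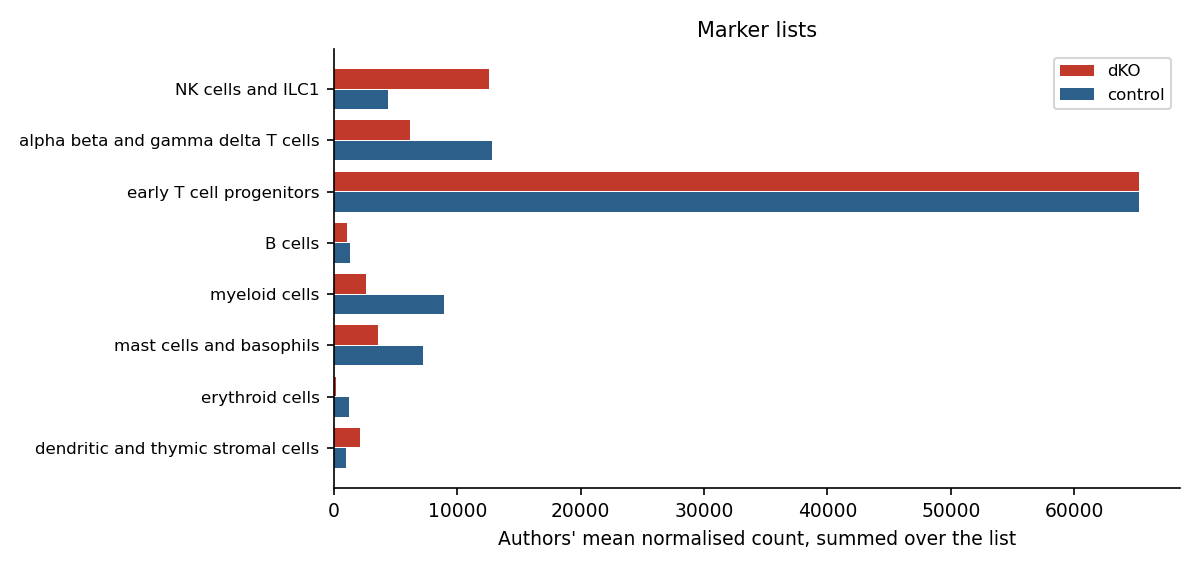
Authors' mean normalised count summed over each marker list, dKO (upper bar) and control (lower bar). NK cell and ILC1 markers sum to 12570 in dKO and 4348 in control, T cell markers to 6172 in dKO and 12814 in control, and progenitor markers to 65257 in dKO and 65293 in control. The most abundant genes of a list weigh most in its sum, and rises and falls within a list can cancel.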

How the data were processed

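RNA was measured in 6 libraries, 3 dKO and 3 control. Per the labels' protocols, cDNA of the sorted cells was amplified from little RNA by a SMARTer kit before sequencing on a HiSeq. Amplified reads are not independent molecules, so intervals and floors cover counting error only. The submitters' processing notes name bcl2fastq 1.8.4, TopHat2 2.0.14, DESeq version 2 and build mm9, without roles. Gene counter, annotation and strand use were not given in the sources used here.

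The deposited table holds, for each gene, a mean normalised count in either group, which is a signal that the authors scaled by library size factors per the file headers, the fold as a ratio of the means, and the p-value with its adjusted value. The recomputed ratio was within a relative 1.12e-07 of the deposited one, and the Benjamini-Hochberg adjustment redone on the deposited p-values was within 4.08e-07. The deposited log2 column was not used, since it holds spreadsheet errors. The 6368 genes at 0 in both groups have no p-value.

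A gene was called at the authors' adjusted p under 0.05 over all 16241 tested genes. The table holds group means, so the count test on values per library that the design named as its first choice was replaced by the authors' test, as the design foresaw. Log2 changes were computed from the means, with a group at 0 set to a floor of 3 reads in its shallowest library, 0.963 in dKO and 1.21 in control, and such genes left out of medians when the other group was at or under its floor. The value of 1 read in each library was fitted to the lowest means, and a mean was split into whole reads where 1 solution matched all its printed digits, which held for all 5361 dKO and 5259 control values up to 100. On simulated means of dKO and control, 553 of 887 had 1 solution and all 553 were right. Replicate libraries differed by more than sampling noise, with a chi-square of 6.95 to 11.0 per gene. The groups' summed normalised counts were 23.4 M in dKO and 22.1 M in control.

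Promoter windows came from RefSeq on GRCm38.p6, and all 10 symbols matched. Alignments used Biopython 1.88 in Python 3.11.15. The 10 genes, the pathway lists and the marker lists were chosen with earlier results of these data known. Named were all 10 genes, Tcf3 and Tcf12, and, per pathway list, up to 4 called genes in each direction, ordered by adjusted p, with the 3 most abundant of those not called (3 and 2 per marker list). Tnfrsf10b, Kit, Cd8a in the T cell list, Vamp7, listed at 0, the neighbours of the granzymes, and the neighbouring genes in the closing observations were named for their role or position, Kit and Vamp7 after their values were seen. Some genes that this rule would name are not reported here. The alternatives tried were a stricter threshold, a minimum fold, a filter on low means, other scalings, pseudocounts and leaving out each library.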

Additional observations from a re-analysis of the deposited data

How the results depend on the processing

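The count of called genes among the 10 stayed at 9 with an adjusted p under 0.01 and with the adjustment redone over genes with a mean of at least 10. It was 8 when a fold of at least 2 was also asked, which drops Nkg7. Of the other pathway genes, 43 were called, and 39, 31 and 44 under these alternatives in the order stricter threshold, minimum fold and filter. The share of all tested genes called under each alternative was not computed, so these counts have no background beside them. Those lower in dKO numbered 6, and 2 with a fold of at least 2, since the others, Vamp8, Serpinb6b and Bid among them, changed by less. Equal totals of the groups (a shift of 0.08 on the log2 scale), a median of 0 over genes with a mean of at least 100 (a shift of 0.01), and pseudocounts of 1 and 10 kept the direction of all 10 log2 changes, 40 of 40 values. None of these settings could have changed a direction. A pseudocount added to both means keeps the sign, and both shifts were smaller than the smallest log2 change, 0.74 for Nkg7. With pseudocount 10 the log2 change of Ifng was 3.02, against 5.88 from the ratio of means, since its control mean is 1.40.

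Leaving out each library in turn was possible for Gzmc, Prf1, Ifng, Xcl1 and Ccl3, and for the dKO libraries of Fasl. The direction was kept in 33 of 33 values, a count that was fixed in advance. For Gzmc, Prf1, Ifng, Xcl1 and Ccl3 every dKO library lay above every control library. For Fasl every dKO library lay below the control mean of 986. Only the size of a change was free to move, as for the log2 change of Gzmc, from 2.48 to 3.72. The fold of Gzmc ran from 5.56 to 13.2 that of Ifng ran from 39.2 to 68.9 when each of 5 libraries was left out and was at least 45.2 without the control library of size factor 0.952, and Fasl was 5.85-fold to 7.73-fold lower. No paired analysis was possible because the table holds group means and the recovered libraries carry no replicate number. A fit with DESeq2 or edgeR was not run for the same reason. For Gzma, Gzmb, Nkg7 and Tnfsf10, and for Fasl in control, the spread between libraries is not known. This limits what can be said of the folds of these genes beyond the authors' test.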

Other observations

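The genes on either side of the 10 cytotoxic genes were read from the RefSeq order of protein-coding genes on GRCm38.p6, taking the nearest 2 in the table on each side. Of 36 such genes outside the 10, 5 were higher in dKO, 3 were lower, 23 did not pass and 5 were listed at 0 in both groups. The share called, 25.8% of the 31 tested, is near the 29.0% of all tested genes. The higher ones were Ccl9 and Ccl6 beside Ccl3, Ect2 and Nceh1 beside Tnfsf10, and Sft2d2 near Xcl1. In the authors' deposited table Ect2 had a mean of 2930 in dKO and 2388 in control, and Nceh1 had 921 in dKO and 657 in control. The lower ones were Siglecg near Nkg7, with a mean of 85.7 in dKO and 345 in control, Esm1 near Gzma, with 5.58 in dKO and 624 in control, and Cand1 near Ifng, with 5295 in dKO and 6275 in control, in the authors' deposited table. The neighbours of Ifng include the cytokine gene Il22, with a mean in the authors' deposited table of 10.1 in dKO and 2.41 in control, which missed the threshold (authors' adjusted p = 0.511).

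Reads per library were also recovered for some genes of the NK cell and ILC1 list and for Eomes. Klre1 of that list was recovered as well and missed the threshold. No marker list of other innate lymphoid cells was made, so these genes are not set beside such cells. The normalised counts of Ncr1 were 244, 297 and 154 in the dKO libraries of size factor 1.04, 1.08 and 1.16 and 4.86, 11.6 and 0 in the control libraries of size factor 0.823, 0.952 and 1.02. Those of Klrg1 were 112, 177 and 130 in the same dKO libraries and 20.6, 10.5 and 5.86 in the same control libraries. Those of Eomes, a T-box factor of NK cells, were 115, 208 and 88.2 in dKO and 15.8, 56.7 and 52.7 in control. Those of Klrb1c, which encodes NK1.1, were 78.0, 64.2 and 56.2 in dKO and 3.64, 4.20 and 31.2 in control. The dKO library of size factor 1.08 was the highest for Ncr1, Klrg1 and Eomes, as for Gzmc, Xcl1 and Fas, and that of size factor 1.04 was the highest for Klrb1c, while for Ifng, Ccl6 and Ccl4 that of size factor 1.08 was the lowest. With 3 libraries per group this is a description and was not tested.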
